A study of Rattus norvegicus with 23 samples.

Results

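The protein phosphatase subunits were taken as every probe set whose platform annotation gives a single gene symbol that begins with Ppp1 to Ppp6 followed by c (catalytic) or r (regulatory), or with Ppm1 followed by a letter. The rule found 132 probe sets of 79 genes among the 31042 probe sets of the array that are not controls. They divide into PP1 catalytic (3 probe sets) and PP1 regulatory subunits (47), PP2A catalytic (3), scaffold (3) and B-type regulatory subunits (24), calcineurin (12), PP4 (12), PP5 (1), PP6 (6) and the metal-dependent PPM family (21). A further 1 probe set that names several genes, Ppp2ca among them, was left out. Of the members, 95 probe sets of 65 genes were bright enough to test, that is, reached 4 on the log2 scale on 6 or more arrays. The other 37 were not, and 14 genes, among them Ppp1r9a, Ppp1r15a and Ppp3r2, had no tested probe set.

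Transcripts were measured in tissue microdissected from the CA3 field of the hippocampus, on Affymetrix Rat Genome 230 2.0 arrays, with 1 array for each of 23 male Long-Evans rats. Aged impaired rats (24 to 26 months, n = 8) learned a hidden platform in the water maze worse than the young by a learning index. Aged unimpaired rats (24 to 26 months, n = 6) scored within the range of the young, and young rats (6 months, n = 9) were the baseline. The rats were outbred animals with no transgene or drug named in the labels, and the comparisons bear on age and on learning ability.

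Serine/threonine phosphatases remove the phosphates that kinases add. A small number of catalytic subunits serve many substrates, because PP1 and PP2A are directed by exchangeable regulatory subunits, and PP2A is assembled on a scaffold subunit. Calcineurin, also called PP2B, is a catalytic A subunit with a regulatory B subunit that is switched on by calcium and calmodulin. In hippocampal neurons calcineurin and PP1 oppose kinases at synapses and are known for their part in long-term depression, while the PPM enzymes act without such subunits and need metal ions.

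All values are GCRMA expression values on the log2 scale as deposited, and differences subtract the group named second from the one named first, with the standard error (SE) or 95% interval from a limma fit. The levels of different probe sets are not compared, since probes differ in brightness. Counts of animals above or below others use the unrounded values. Because CA3 tissue holds many cell types, fewer cells of a type and less RNA per cell cannot be told apart. Of 9 measured CA3 markers, 4 were lower in aged impaired than young rats, and the centred score of the list ran between -0.42 and 0.12 in aged impaired, -0.12 and 0.07 in aged unimpaired and 0.01 and 0.28 in young rats. Of 6 measured microglial markers, 5 were higher in aged impaired than young rats, with scores between 0.02 and 0.66 in aged impaired, 0.03 and 0.39 in aged unimpaired and -0.64 and -0.17 in young rats. The score of 5 measured CA1 markers spanned -0.70 to 1.22 in aged impaired, -0.24 to 0.31 in aged unimpaired and -1.67 to 0.61 in young rats. The striatal markers Drd1 and Drd2 lay at the floor of the scale. The part of these shifts in the results was not tested, apart from fits with a CA3-minus-CA1 marker score as a covariate. The CA3 and CA1 scores also differed between the groups on average, so those fits cannot fully separate marker score from group. They do not include the microglial score.

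In aged impaired against young CA3, 4 of 95 tested member probe sets passed the test (limma with Benjamini-Hochberg adjustment over all 14647 tested probe sets, adjusted p of at most 0.05). Over the whole array 9.76% passed. Ppp2r3a, a regulatory subunit of PP2A, rose. Ppp1r13b, a PP1-binding protein, and both tested probe sets of Ppm1h, a PPM phosphatase, fell. The rises and falls on the whole array were 3.88% and 5.88% of probe sets. The 4 calls are 4.21% of the tested members, which is below the share of the array. An unadjusted p under 0.05 was found for 16 members, or 16.8%, against 26.3% of all probe sets. The median difference of the members was -0.03, against -0.02 over all probe sets, and 64 of 95 were negative, or 67.4% against 56.5%.

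In aged unimpaired against young rats 0 of 95 passed in limma, where 2.06% of the array passed (1.37% higher and 0.696% lower), and 17 had an unadjusted p under 0.05, or 17.9% against 16.8% of all probe sets. Between aged impaired and aged unimpaired rats 0 passed too in limma, with 0.778% of the array passing (0.676% higher and 0.102% lower), and 14 had an unadjusted p under 0.05, or 14.7% against 15.2%. With both aged groups as a whole against young, 3 probe sets fell and 0 rose, where 6.9% of the array passed, 3.34% higher and 3.56% lower. Those 3 were both Ppm1h probe sets and Ppp2r1a, the main scaffold subunit of PP2A, and 22 members had an unadjusted p under 0.05, or 23.2% against 23.6%. The comparisons with young share the young arrays, so they do not stand as separate tests of age.

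Single arrays moved these counts. The share of the whole array that passed in each of these fits is not given here, so the shifts cannot be read as particular to the members. The count in aged impaired against young rats was 9 without aged impaired animal 1 and 2 without aged impaired animal 8. The count in aged unimpaired against young rats was 4 without aged unimpaired animal 7, 1 without young animal 7, 2 without young animal 8 and 4 with array weights. The count in aged impaired against aged unimpaired rats was 3 without aged unimpaired animal 7. The gains without aged impaired animal 1 included Ppp6r1 1388815_at and Ppp2r1a 1375245_at. Those in aged unimpaired against young rats without aged unimpaired animal 7 were Ppp1r12a 1382307_at, Ppp1r3d, Ppp2r1a 1381024_at and Ppp4r2 1392997_at. Without young animal 7 Ppp2r2c passed, and without young animal 8 Ppm1d and Ppm1h 1393712_at. With array weights the calls in that comparison were Ppm1d, Ppm1h 1393712_at, Ppp1r14b and Ppp4r2 1392997_at.

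**Figure D1:**
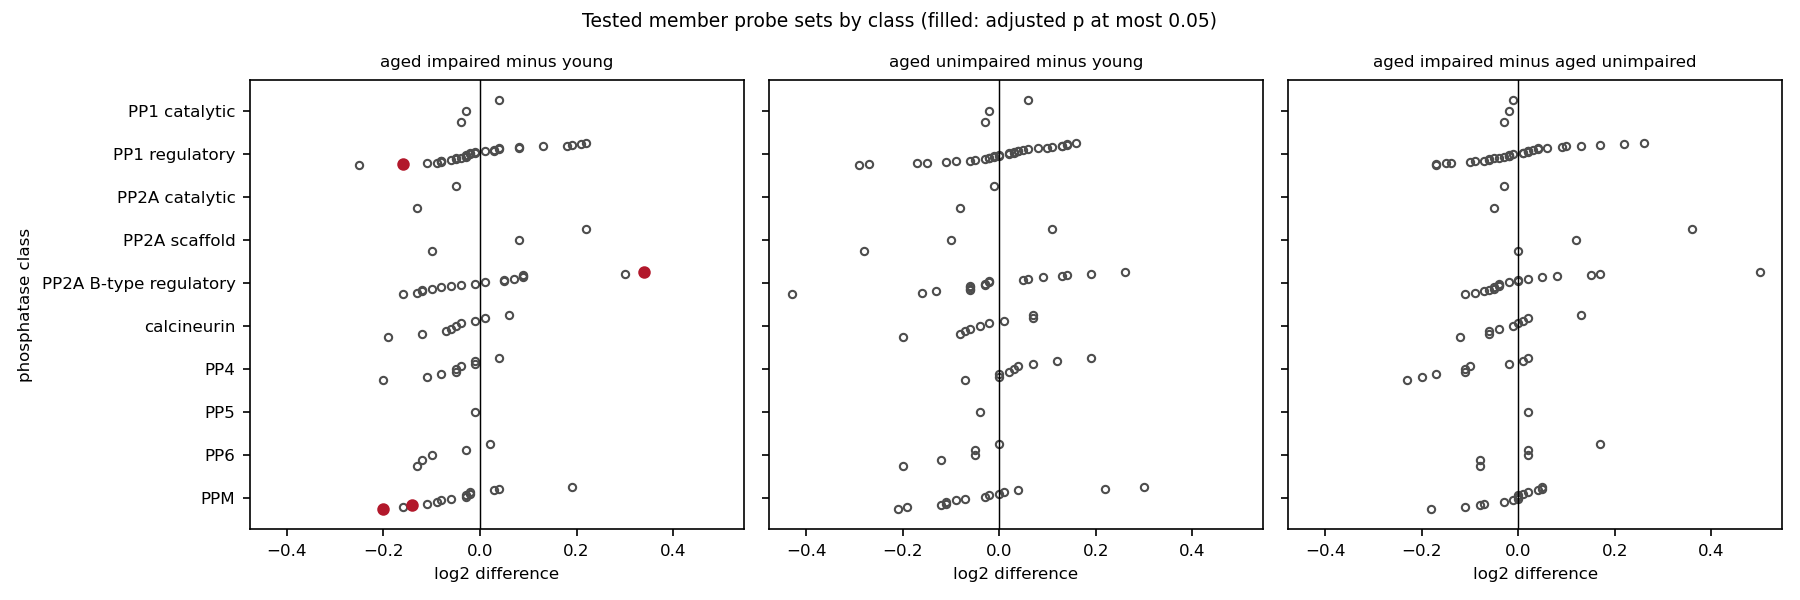
Log2 differences of the 95 tested member probe sets by phosphatase class (rows) in 3 comparisons (panels); each point is a probe set and filled points passed the limma test. The 4 filled points lie in aged impaired minus young, 1 above 0 among the PP2A B-type subunits and 3 below 0 among the PP1 regulatory subunits and the PPM family.

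The differences were small and the fit was precise enough to bound most of them. In aged impaired against young rats, the 95% interval of the difference lay within 0.5 log2 units of 0 for 90 of 95 member probe sets and within 0.25 for 70. The same counts were 87 and 65 in aged unimpaired against young rats and 91 and 67 in aged impaired against aged unimpaired rats. The residual SD among animals of a group had a median of 0.12 over the members, with a range of 0.02 to 0.59, and 0.14 over all tested probe sets. GCRMA gave the same value to 3 or more arrays for 40 of the 95 members, or 42.1%, against 49.1% of all tested probe sets, and the spread of such a probe set is understated. The 5 member probe sets that passed any test had at most 2 arrays with a shared value.

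Ppm1h removes phosphates from Rab GTPases, the switches of membrane traffic, and both of its tested probe sets were lower in aged rats. By probe set 1376060_at its log2 value had a lowest, median and highest of 8.53, 8.64 and 8.75 in aged impaired, 8.59, 8.72 and 8.72 in aged unimpaired and 8.70, 8.81 and 8.89 in young rats. The 6 highest young rats lay above all aged impaired rats, and 6 of 8 aged impaired rats lay below all young rats. The difference was -0.14 ± 0.03 (SE; 1.10-fold lower; adjusted p = 0.0175) in aged impaired against young rats. It was -0.11 ± 0.04 in aged unimpaired against young rats (adjusted p = 0.149) and -0.12 ± 0.03 for both aged groups (adjusted p = 0.0212). The call held in every alternative fit that was run.

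By the other tested probe set of Ppm1h, 1393712_at, the lowest, median and highest were 7.71, 7.82 and 7.94 in aged impaired, 7.75, 7.81 and 7.94 in aged unimpaired and 7.75, 8.02 and 8.36 in young rats. The aged groups covered nearly the same range, and 6 of 9 young rats lay above every aged rat. The difference was -0.20 ± 0.06 in aged impaired against young rats (adjusted p = 0.0275), -0.19 ± 0.06 in aged unimpaired against young rats (adjusted p = 0.102) and -0.20 ± 0.05 for both aged groups (adjusted p = 0.0202). The first of these had an adjusted p of 0.0527 without aged impaired animal 8, and the second passed without young animal 8 and with array weights. Between aged impaired and aged unimpaired rats the differences of the 2 probe sets were -0.03 (95% interval -0.11 to 0.05) and -0.01 (-0.14 to 0.12). Within the groups the 2 probe sets hardly moved together over the animals (r = 0.15 over 23 arrays).

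Ppp1r13b, or ASPP1, binds both PP1 and the tumour suppressor p53 and is known as a promoter of apoptosis. Its log2 value (1373301_at) had a lowest, median and highest of 9.38, 9.47 and 9.55 in aged impaired, 9.52, 9.62 and 9.69 in aged unimpaired and 9.52, 9.60 and 9.75 in young rats. Aged unimpaired and young rats overlapped almost wholly, while 6 of 8 aged impaired rats lay below every aged unimpaired and every young rat. Ppp1r13b fell in aged impaired against young rats by 0.16 on the log2 scale (difference -0.16 ± 0.04; 1.12-fold lower; adjusted p = 0.0102). The difference was -0.02 ± 0.04 in aged unimpaired against young rats (adjusted p = 0.883) and -0.14 ± 0.04 in aged impaired against aged unimpaired rats, which missed the threshold (adjusted p = 0.0886). With the CA3-minus-CA1 marker score as a covariate, the difference from young was -0.13 ± 0.04 and its adjusted p 0.0561.

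Ppp2r3a, a calcium-binding B″ subunit that directs PP2A to its substrates, was the member that rose. By 1395410_at it had a lowest, median and highest of 5.97, 6.12 and 6.32 in aged impaired, 5.57, 5.99 and 6.27 in aged unimpaired and 5.55, 5.65 and 6.35 in young rats. Among the young, 7 of 9 animals lay below every aged impaired rat and 1 lay above them all, and aged unimpaired rats spread over most of both ranges. The difference was 0.34 ± 0.10 in aged impaired against young rats (1.26-fold higher; adjusted p = 0.043), 0.19 ± 0.11 in aged unimpaired against young rats (adjusted p = 0.411) and 0.15 ± 0.12 in aged impaired against aged unimpaired rats (adjusted p = 0.603). The other tested probe set of Ppp2r3a, 1375990_a_at, differed by 0.30 in aged impaired against young rats (adjusted p = 0.166) and the 2 probe sets did not move together within groups (r = 0.03).

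The call of Ppp2r3a was lost without any of aged impaired animals 2, 3, 4, 5, 7 and 8, aged unimpaired animals 4 and 8, or young animals 1, 3, 5, 7, 8 and 9, with adjusted p up to 0.0798. It was also lost with the gap between 2 control rows as a covariate, described below (difference 0.27 ± 0.11, adjusted p = 0.125). The difference kept its sign in every fit, between 0.27 and 0.41.

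Ppp2r1a encodes the scaffold that holds the PP2A catalytic and B subunits together. By 1375245_at it had a lowest, median and highest of 10.81, 10.88 and 11.03 in aged impaired, 10.81, 10.86 and 10.97 in aged unimpaired and 10.93, 10.97 and 11.09 in young rats. Of the 14 aged rats, 11 lay below every young rat, and aged impaired animal 1 was the highest of them. The difference of both aged groups from young was -0.10 ± 0.03 (1.07-fold lower; adjusted p = 0.0497). It was -0.10 in each aged group alone, with adjusted p of 0.0696 in aged impaired and 0.165 in aged unimpaired rats against young. This call lay at the threshold and held in 4 of the 23 fits that left out 1 array, those without aged impaired animal 1, aged unimpaired animal 1, aged unimpaired animal 7 or young animal 5, with adjusted p up to 0.106 in the others. With the CA3-minus-CA1 marker score as a covariate the difference was -0.11 ± 0.03 and its adjusted p 0.0721. The other probe set of Ppp2r1a, 1381024_at, had the same estimate for both aged groups with a wider error (-0.10 ± 0.09) and did not pass (adjusted p = 0.507). By group its differences from young were unlike, at +0.08 in aged impaired and -0.28 in aged unimpaired rats. Within groups the 2 probe sets moved together (r = 0.60).

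**Figure D2:**
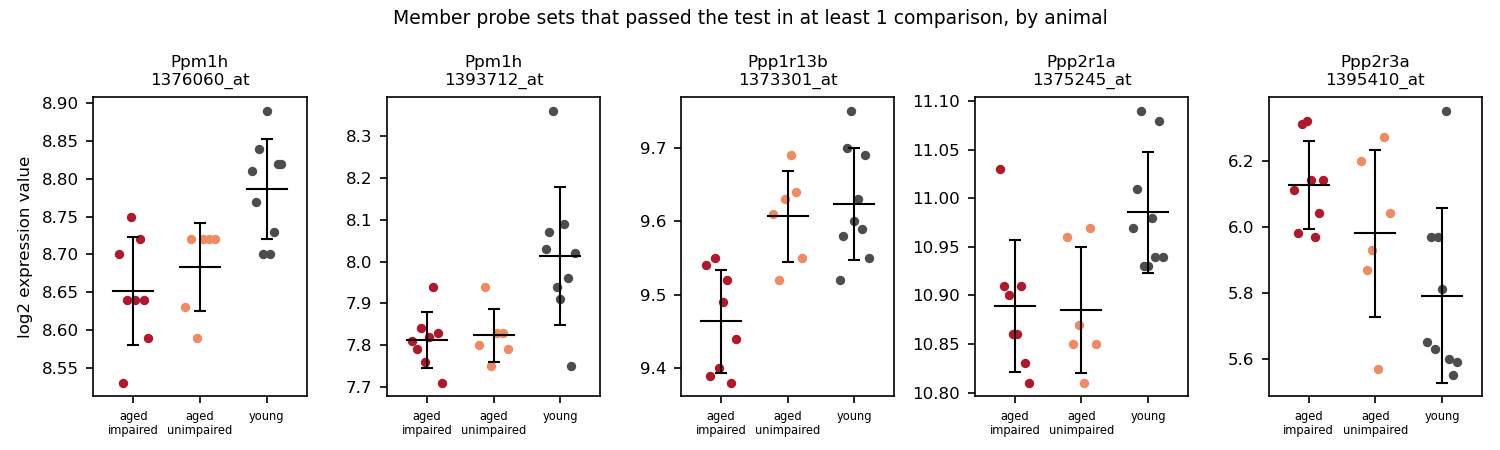
Log2 expression values of the 5 member probe sets that passed the test in at least 1 comparison, with a point for each animal, a line at the group mean and bars of 1 SD (aged impaired n = 8, aged unimpaired n = 6, young n = 9). Both Ppm1h probe sets and Ppp2r1a are low in both aged groups, Ppp1r13b is lowest in aged impaired rats, and Ppp2r3a is high in aged impaired rats with a wide spread in the other groups.

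The 250 bases before the annotated start of these 4 genes are printed because they are the genes with a call; no binding or methylation was measured here. The sequences are from RefSeq, build GRCr8, and are written 5′ to 3′ on the strand of the gene. Capitals mark exact matches to 4 motifs, searched on both strands, and no match overlapped another. The motifs were the GC box GGGCGG, the CAAT box CCAAT, the core TATA box TATAAA and the cyclic AMP response element TGACGTCA. Ppm1h is at chr7:60223837-60224086 (plus strand), Ppp1r13b at chr6:136783977-136784226 (minus), Ppp2r1a at chr1:69212948-69213197 (plus) and Ppp2r3a at chr8:110677483-110677732 (minus).
Ppm1h: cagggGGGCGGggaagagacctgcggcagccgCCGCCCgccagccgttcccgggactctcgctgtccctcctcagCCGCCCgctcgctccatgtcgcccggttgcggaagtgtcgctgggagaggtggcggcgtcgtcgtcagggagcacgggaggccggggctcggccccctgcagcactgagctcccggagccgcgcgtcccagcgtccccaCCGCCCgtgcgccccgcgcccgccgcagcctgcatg
Ppp1r13b: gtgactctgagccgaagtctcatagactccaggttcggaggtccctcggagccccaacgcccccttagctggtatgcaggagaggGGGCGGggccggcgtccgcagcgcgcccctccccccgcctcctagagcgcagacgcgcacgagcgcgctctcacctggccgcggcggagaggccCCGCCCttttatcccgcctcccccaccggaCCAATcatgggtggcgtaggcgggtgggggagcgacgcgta
Ppp2r1a: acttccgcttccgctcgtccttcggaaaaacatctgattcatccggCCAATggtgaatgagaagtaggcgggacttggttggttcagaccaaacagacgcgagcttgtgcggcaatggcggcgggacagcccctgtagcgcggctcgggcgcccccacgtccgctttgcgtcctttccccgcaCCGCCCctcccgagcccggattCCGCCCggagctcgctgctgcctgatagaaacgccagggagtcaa
Ppp2r3a: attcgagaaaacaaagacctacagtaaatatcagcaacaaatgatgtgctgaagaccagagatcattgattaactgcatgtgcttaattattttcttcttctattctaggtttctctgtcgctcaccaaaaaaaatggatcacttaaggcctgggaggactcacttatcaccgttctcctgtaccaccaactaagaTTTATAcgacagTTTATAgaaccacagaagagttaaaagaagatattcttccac
Of 33469 promoter windows of this length, 30.5% hold GGGCGG, 34.0% CCAAT, 12.9% TATAAA and 1.59% TGACGTCA. The 3 genes that fell hold GGGCGG (4 matches before Ppm1h, 2 before Ppp1r13b and 2 before Ppp2r1a) in windows of 77.2%, 71.2% and 63.2% G and C with 34, 28 and 26 CpG pairs. The window of Ppp2r3a, the gene that rose, holds 2 TATAAA matches, both on the strand opposite the gene, 37.2% G and C and 4 CpG pairs. The windows of the 66 of 79 member genes with a sequence had a median of 63.4% G and C and 19 CpG pairs. Over all windows these were 51.2% and 5. Of the member windows, 56.1% held GGGCGG, 36.4% CCAAT, 7.58% TATAAA and 6.06% TGACGTCA. A link between such content and the direction of change was not tested. A match is a string of letters and not evidence of a bound site.

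The catalytic subunits of PP1, which acts in dendritic spines and in the nucleus among other places, did not pass in any of the 4 comparisons. Ppp1ca had a lowest, median and highest log2 value of 10.95, 11.05 and 11.22 in aged impaired, 11.00, 11.08 and 11.10 in aged unimpaired and 10.99, 11.12 and 11.19 in young rats. Ppp1cb had 11.25, 11.40 and 11.60 in aged impaired, 11.29, 11.43 and 11.52 in aged unimpaired and 11.26, 11.39 and 11.46 in young rats. Ppp1cc had 11.66, 11.81 and 11.88 in aged impaired, 11.75, 11.82 and 11.91 in aged unimpaired and 11.73, 11.84 and 11.94 in young rats. In all 3 genes the groups overlapped over most of their ranges. The differences of aged impaired against young rats were -0.03 (95% interval -0.11 to 0.04), 0.04 (-0.05 to 0.13) and -0.04 (-0.12 to 0.03) for Ppp1ca, Ppp1cb and Ppp1cc. Over the 3 pairwise comparisons no interval of these genes went below -0.12 or above 0.16, and 0 of the 3 had an unadjusted p under 0.05 in any of them.

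The PP2A catalytic subunits are encoded by Ppp2ca and Ppp2cb. Ppp2ca had a lowest, median and highest of 9.87, 10.08 and 10.30 in aged impaired, 10.01, 10.11 and 10.23 in aged unimpaired and 10.10, 10.17 and 10.33 in young rats. Of 8 aged impaired rats, 5 lay below every young rat. The difference was -0.13 ± 0.05 in aged impaired against young rats (unadjusted p = 0.0191, adjusted p = 0.108) and -0.08 ± 0.05 in aged unimpaired against young rats (adjusted p = 0.484). It passed without aged impaired animal 1, the highest animal of that group.

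Ppp2cb had 10.54, 10.71 and 10.97 in aged impaired, 10.65, 10.76 and 10.88 in aged unimpaired and 10.67, 10.79 and 10.93 in young rats. The ranges overlapped, with a difference of -0.05 (95% interval -0.15 to 0.06) in aged impaired against young rats. Regulatory subunits and PPM genes that are named without a call, apart from Ppp1r2 and Ppp1r9b, were picked after their values were seen. The minor scaffold gene Ppp2r1b lay higher by 0.22 ± 0.08 in aged impaired against young rats without passing (adjusted p = 0.0703), and it passed with array median centring and without aged impaired animal 5 or aged unimpaired animal 6. The Ppp2r1b probe set had 9 arrays at a shared value. In the same comparison Ppp2r1a differed by -0.10 by 1375245_at, not called there (adjusted p = 0.0696), and by +0.08 by 1381024_at.

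The catalytic subunits of PP4, PP5 and PP6 did not pass in any comparison. Ppp4c had a lowest, median and highest of 7.56, 7.56 and 7.57 in aged impaired, 7.41, 7.56 and 7.67 in aged unimpaired and 7.54, 7.56 and 7.77 in young rats, with the same value on 8 arrays. Ppp5c, an enzyme with its own targeting repeats that binds HSP90, had 8.39, 8.50 and 8.62 in aged impaired, 8.38, 8.50 and 8.52 in aged unimpaired and 8.41, 8.50 and 8.65 in young rats. Ppp6c had 6.67, 6.88 and 7.08 in aged impaired, 6.83, 6.93 and 7.10 in aged unimpaired and 6.75, 6.99 and 7.22 in young rats. The groups overlapped in all 3, with a slightly lower aged impaired range in Ppp6c. The differences in aged impaired against young rats were -0.05 (95% interval -0.12 to 0.03) for Ppp4c, -0.01 (-0.09 to 0.06) for Ppp5c and -0.12 (-0.25 to 0.01) for Ppp6c.

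**Figure D3:**
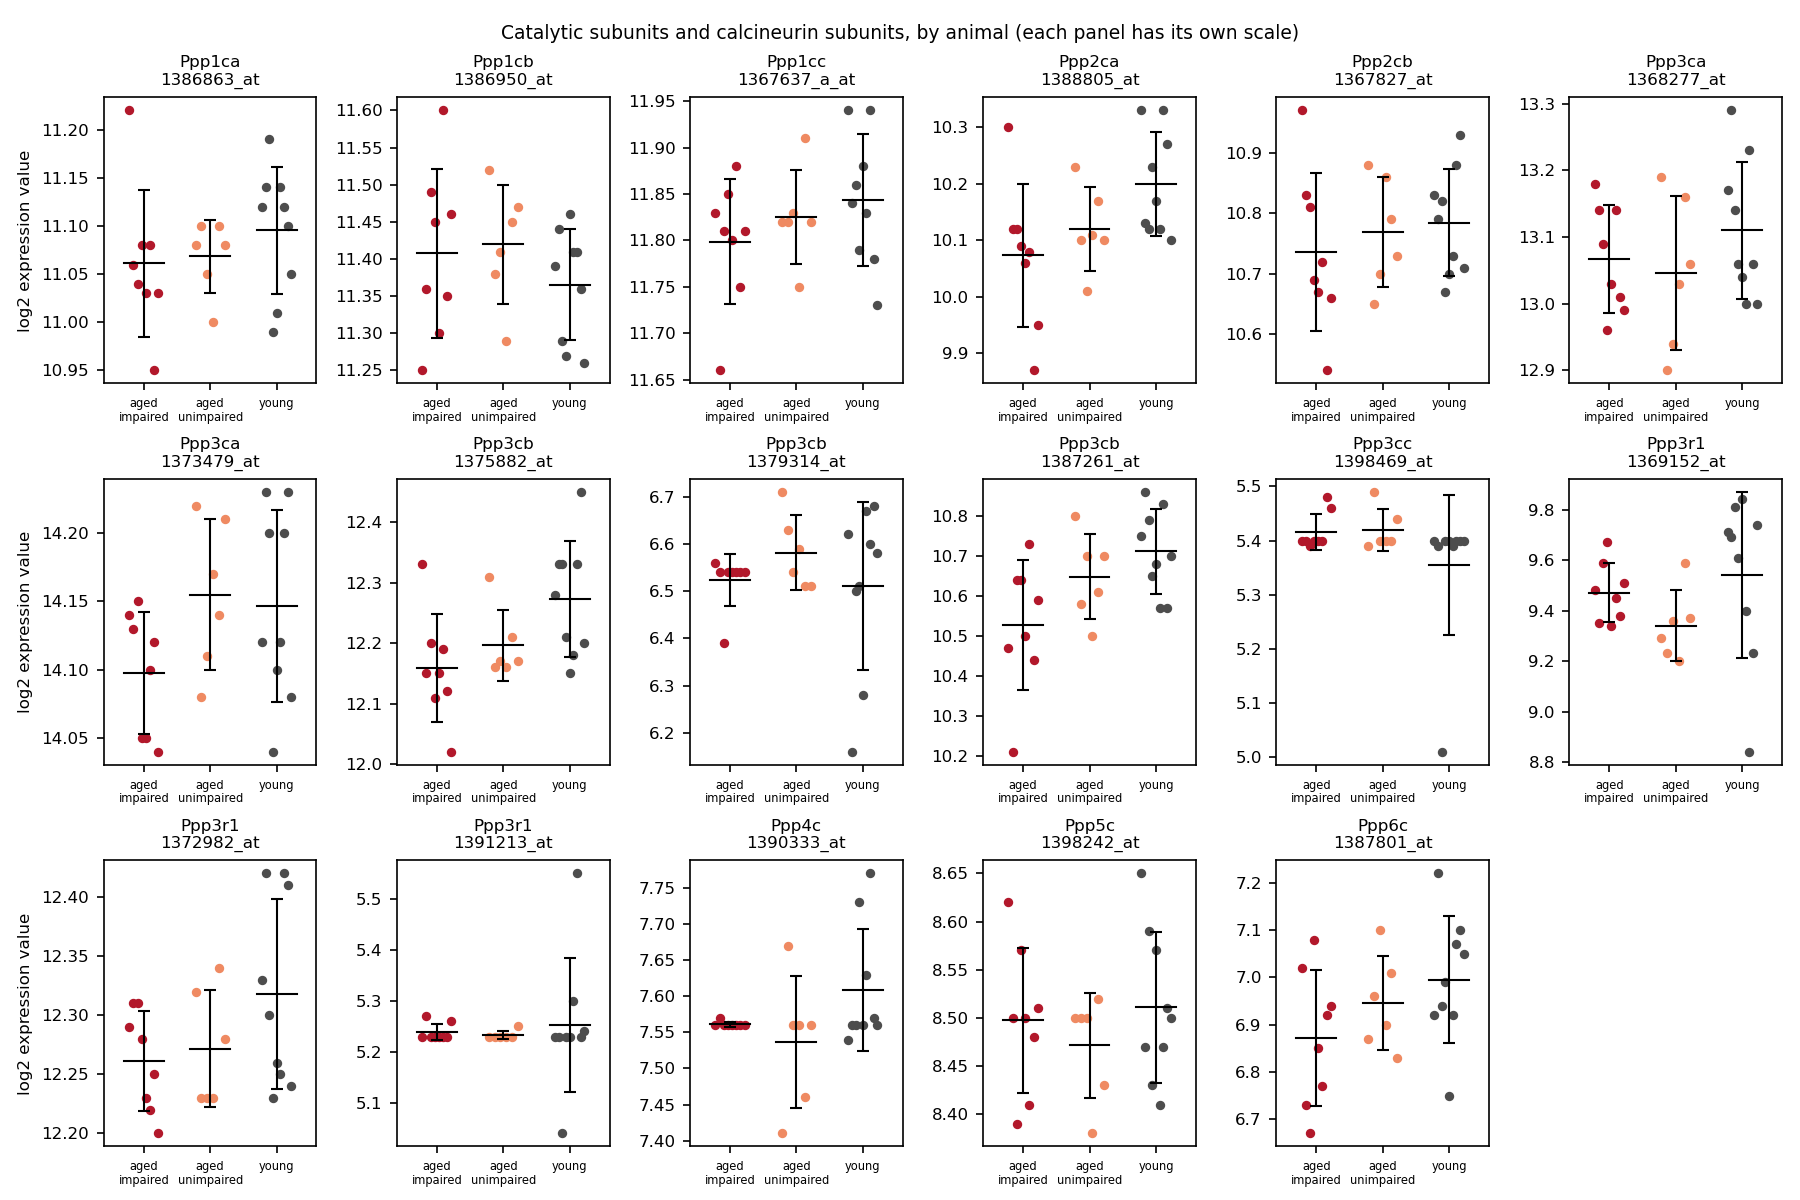
Log2 expression values of every tested catalytic probe set of PP1 to PP6 and of every tested calcineurin probe set, with a point for each animal, a line at the group mean and bars of 1 SD (aged impaired n = 8, aged unimpaired n = 6, young n = 9; each panel has its own vertical scale). The groups overlap in every panel; Ppp3cc, Ppp4c and Ppp3r1 1391213_at show rows of animals at a shared value.

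Calcineurin had 12 probe sets of 5 genes, and 9 of 4 genes were tested. In limma 0 of the 9 passed in any comparison, and 2 had an unadjusted p under 0.05 in aged impaired against young rats, 0 in aged unimpaired against young rats and 0 between the aged groups. The median differences were -0.05, -0.04 and -0.01 in these 3 comparisons. Ppp3r2, the B subunit known from testis, stayed at the floor of 2.19 on all arrays.

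Ppp3ca, an A subunit isoform abundant in hippocampal neurons, had 2 tested probe sets. By 1368277_at it had a lowest, median and highest of 12.96, 13.06 and 13.18 in aged impaired, 12.90, 13.05 and 13.19 in aged unimpaired and 13.00, 13.06 and 13.29 in young rats. By 1373479_at it had 14.04, 14.11 and 14.15 in aged impaired, 14.08, 14.15 and 14.22 in aged unimpaired and 14.04, 14.12 and 14.23 in young rats. The ranges nearly coincided, and within groups the 2 probe sets moved together over the animals (r = 0.67). The differences were -0.04 (95% interval -0.15 to 0.06) and -0.05 (-0.12 to 0.02) in aged impaired against young rats, and 0.02 (-0.09 to 0.14) and -0.06 (-0.13 to 0.02) in aged impaired against aged unimpaired rats. At the top of the scale an array's signal can be compressed, and the part of this was not tested.

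Ppp3cb, the other A subunit of neurons, came nearest to the threshold. By 1387261_at it had a lowest, median and highest of 10.21, 10.55 and 10.73 in aged impaired, 10.50, 10.65 and 10.80 in aged unimpaired and 10.57, 10.70 and 10.86 in young rats, and 4 of 8 aged impaired rats lay below all young rats. The difference was -0.19 ± 0.06 in aged impaired against young rats (unadjusted p = 0.00634, adjusted p = 0.0579), -0.06 ± 0.07 in aged unimpaired against young rats (adjusted p = 0.68) and -0.12 ± 0.07 between the aged groups (adjusted p = 0.418). It passed without aged impaired animal 6, young animal 6 or young animal 8.

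By 1375882_at Ppp3cb had 12.02, 12.15 and 12.33 in aged impaired, 12.16, 12.17 and 12.31 in aged unimpaired and 12.15, 12.28 and 12.45 in young rats, and 5 aged impaired rats lay below all young rats. The difference was -0.12 ± 0.04 in aged impaired against young rats (adjusted p = 0.0907), and it passed without aged impaired animal 1. The dim probe set 1379314_at had 6.39, 6.54 and 6.56 in aged impaired, 6.51, 6.56 and 6.71 in aged unimpaired and 6.16, 6.58 and 6.68 in young rats, with 7 arrays at a shared value and a difference of 0.01 (95% interval -0.11 to 0.14) in aged impaired against young rats. So the 2 brighter probe sets of Ppp3cb had the same sign, and the within-group r between them was 0.13.

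Ppp3cc had a lowest, median and highest of 5.39, 5.40 and 5.48 in aged impaired, 5.39, 5.40 and 5.49 in aged unimpaired and 5.01, 5.40 and 5.40 in young rats, with 13 arrays at a shared value. Such a probe set shows almost no spread to test. The regulatory B subunit Ppp3r1, which binds calcium, had by 1372982_at 12.20, 12.26 and 12.31 in aged impaired, 12.23, 12.26 and 12.34 in aged unimpaired and 12.23, 12.30 and 12.42 in young rats. By 1369152_at it had 9.34, 9.47 and 9.67 in aged impaired, 9.20, 9.33 and 9.59 in aged unimpaired and 8.84, 9.69 and 9.84 in young rats. By 1391213_at it had 5.23, 5.23 and 5.27 in aged impaired, 5.23, 5.23 and 5.25 in aged unimpaired and 5.04, 5.23 and 5.55 in young rats, with 15 arrays at a shared value. All ranges overlapped, and the young spread was widest by 1369152_at. The differences of Ppp3r1 in aged impaired against young rats were -0.06 by 1372982_at (95% interval -0.13 to 0.01), -0.07 by 1369152_at (-0.29 to 0.16) and -0.01 by 1391213_at (-0.10 to 0.07).

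**Figure D4:**
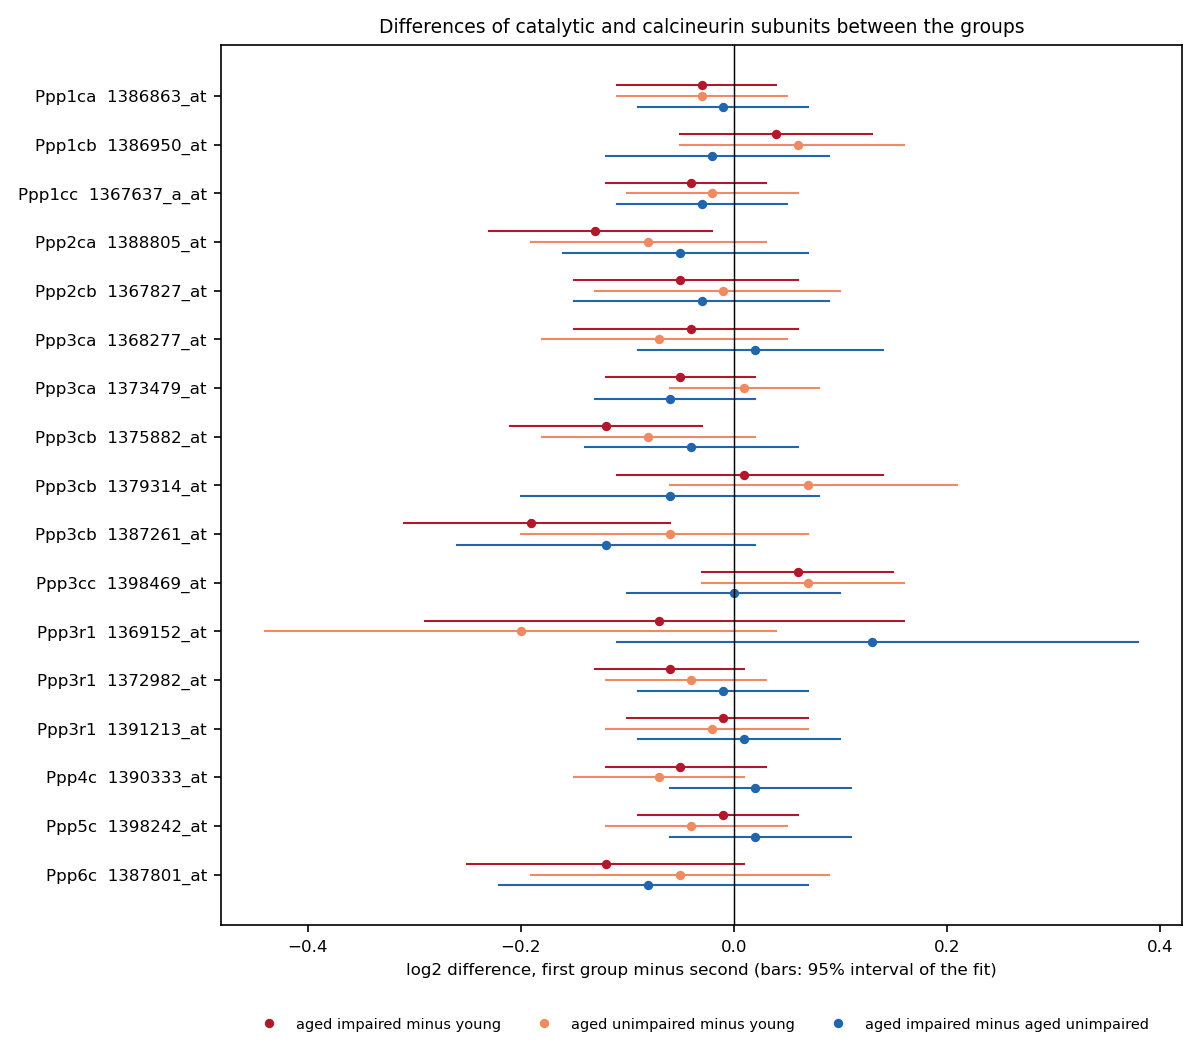
Log2 differences with 95% intervals of the limma fit for the tested catalytic and calcineurin probe sets (rows) in aged impaired minus young, aged unimpaired minus young and aged impaired minus aged unimpaired. Intervals of Ppp2ca 1388805_at, Ppp3cb 1375882_at and Ppp3cb 1387261_at in aged impaired minus young lie below 0, but their adjusted p-values over the array were 0.108, 0.0907 and 0.0579.

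The PP1 regulatory subunits were the largest class, with 31 tested probe sets of 24 genes. In aged impaired against young rats 1 passed (Ppp1r13b), 3 had an unadjusted p under 0.05, and the differences ran from -0.25 to 0.22 with a median of -0.02. In aged unimpaired against young rats they ran from -0.29 to 0.16 with a median of 0.02, and between the aged groups from -0.17 to 0.26 with a median of -0.01. Ppp1r2, the heat-stable inhibitor-2, had a lowest, median and highest of 10.97, 11.25 and 11.39 in aged impaired, 11.23, 11.29 and 11.36 in aged unimpaired and 11.14, 11.24 and 11.35 in young rats by 1372446_at. Ppp1r9b, or spinophilin, which anchors PP1 in dendritic spines, had 11.12, 11.32 and 11.45 in aged impaired, 11.29, 11.32 and 11.35 in aged unimpaired and 11.05, 11.32 and 11.48 in young rats. The medians of Ppp1r9b were the same in the 3 groups, and the differences of aged impaired against young rats were -0.02 (95% interval -0.12 to 0.07) for Ppp1r2 and -0.01 (-0.12 to 0.11) for Ppp1r9b.

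The classical PP1 inhibitors did not pass in limma. Ppp1r1a, or inhibitor-1, differed by 0.04 in aged impaired against young rats (adjusted p = 0.843), and Ppp1r11, or inhibitor-3, by -0.03 (adjusted p = 0.663). Ppp1r1b, or DARPP-32, which becomes a PP1 inhibitor when protein kinase A phosphorylates it, had a lowest, median and highest of 8.30, 8.63 and 8.83 in aged impaired, 8.44, 8.55 and 8.70 in aged unimpaired and 7.90, 8.43 and 8.59 in young rats. The difference was 0.19 in aged impaired against young rats (adjusted p = 0.139) and 0.16 in aged unimpaired against young rats (adjusted p = 0.36), so that both aged groups lay higher on average without passing. The scaffold of transcription-linked PP1, Ppp1r10 or PNUTS, differed by -0.11 and -0.15 from young in aged impaired and aged unimpaired rats (adjusted p of 0.334 and 0.327). Ppp1r37, a PP1-binding protein, differed by -0.25 ± 0.11 in aged impaired against young rats (adjusted p = 0.138) and by -0.26 ± 0.10 for both aged groups (adjusted p = 0.0985). With the CA3-minus-CA1 marker score as a covariate these were -0.38 ± 0.10 and -0.37 ± 0.09 and passed (adjusted p of 0.0376 and 0.0253).

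PP2A B-type subunits had 18 tested probe sets of 12 genes. Ppp2r3a passed in aged impaired against young rats and the differences of the class ran from -0.16 to 0.34, with a median of -0.00 and 9 of 18 negative. Ppp2r2b, a B subunit enriched in neurons, had 10.30, 10.58 and 10.85 in aged impaired, 10.65, 10.69 and 10.81 in aged unimpaired and 10.65, 10.77 and 10.85 in young rats. The aged impaired range reached well below the others. Its difference of -0.16 in aged impaired against young rats (adjusted p = 0.0647) passed with quantile normalization, array median centring or array weights, and without aged impaired animal 1 or 3. The B′ subunits Ppp2r5a to Ppp2r5e differed in aged impaired against young rats by between -0.13 and 0.09 over their 10 tested probe sets.

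PP4, an enzyme of DNA repair and centrosomes, had 9 tested probe sets of 5 genes and PP6 had 5 of 4 genes, and 0 passed in limma in any comparison. Of the PP4 probe sets, 8 of 9 were negative in aged impaired against young rats (median -0.05, 2 with an unadjusted p under 0.05) and 7 of 9 in aged impaired against aged unimpaired rats (median -0.11, 4 with an unadjusted p under 0.05), while 7 of 9 were positive in aged unimpaired against young rats (median 0.03). Over the whole array 56.5%, 59.2% and 50.9% of probe sets were negative in these 3 comparisons, in that order, with an unadjusted p under 0.05 for 26.3%, 15.2% and 16.8%. Several of these probe sets belong to the same gene, and the 3 comparisons share arrays. Ppp4r2, which binds the catalytic subunit, had by 1392997_at 4.27, 4.49 and 4.56 in aged impaired, 4.45, 4.70 and 4.78 in aged unimpaired and 4.29, 4.49 and 4.60 in young rats. Aged unimpaired rats lay highest on average there, near the level needed for testing, with a difference of -0.20 in aged impaired against aged unimpaired rats (adjusted p = 0.111) that passed without aged unimpaired animal 7. Ppp6r1, a subunit that targets PP6, differed by -0.13 by 1388815_at in aged impaired against young rats (adjusted p = 0.0799), against -0.03 by its other probe set, 1385758_at.

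In aged impaired against aged unimpaired rats, the comparison of learning ability among rats of the same age, the smallest adjusted p among members was that of Ppp1r3d, which targets PP1 to glycogen. It had 4.60, 4.78 and 4.78 in aged impaired, 4.69, 4.97 and 5.01 in aged unimpaired and 4.68, 4.78 and 4.94 in young rats. Aged impaired and young rats had the same median, below that of aged unimpaired rats. The probe set had 9 arrays at a shared value and lay near the level needed for testing, so its spread is understated. The difference between the aged groups was -0.17 ± 0.05 (adjusted p = 0.0776), and it passed without aged unimpaired animal 7. Ppm1d, the p53-induced phosphatase Wip1, showed a like order, with 6.97, 7.28 and 7.50 in aged impaired, 7.29, 7.41 and 7.50 in aged unimpaired and 7.03, 7.17 and 7.44 in young rats. Its difference was -0.18 between the aged groups (adjusted p = 0.236) and 0.22 in aged unimpaired against young rats (adjusted p = 0.106). The difference from young passed with array weights and without young animal 8.

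The PPM family had 14 tested probe sets of 8 genes, and those of Ppm1h were the calls in it. The differences of aged impaired against young rats ran from -0.20 to 0.19, with 11 of 14 negative. The founding PP2C genes differed by -0.02 (Ppm1a) and by -0.03, -0.08 and -0.03 (Ppm1b, 3 probe sets). Ppm1k, the mitochondrial phosphatase that activates breakdown of branched-chain amino acids, differed by 0.19 and -0.02 by its 2 probe sets (adjusted p of 0.351 and 0.67).

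The largest differences between the aged groups were those of Ppp2r2c and of the Ppp2r1a probe set that was not called, and both moved with the log2 gap between 2 control rows of the arrays, named GAPDH 5′ and GAPDH M. Ppp2r2c, a B subunit of PP2A found mainly in brain, had a lowest, median and highest of 7.50, 7.67 and 8.04 in aged impaired, 6.50, 7.23 and 7.73 in aged unimpaired and 6.52, 7.58 and 8.24 in young rats. Of 6 aged unimpaired rats, 5 lay below every aged impaired rat, and the difference was 0.50 ± 0.19 (adjusted p = 0.204). Ppp2r1a by 1381024_at had 9.51, 9.72 and 9.98 in aged impaired, 9.00, 9.35 and 9.84 in aged unimpaired and 9.23, 9.68 and 10.05 in young rats, again with 5 of 6 aged unimpaired rats below every aged impaired rat. Its difference was 0.36 ± 0.11 (adjusted p = 0.105) and passed without aged unimpaired animal 7, the highest of its group.

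Over the arrays these control rows followed a probe set of several actin genes (r of 0.86 and 0.61) more than a probe set of several GAPDH genes (0.48 and 0.38), so that what the gap measures is uncertain. The gap averaged 2.14 ± 0.09 in aged impaired (SD, n = 8), 2.28 ± 0.09 in aged unimpaired (n = 6) and 2.22 ± 0.10 in young rats (n = 9). Of the 95 tested members, 4 correlated with it over the 23 animals, all of them negatively. The same share over the whole array was not computed, so this count cannot be read as particular to the members. The test was a two-sided permutation test of Pearson's r with 100000 permutations, at a Benjamini-Hochberg adjusted p of at most 0.05 over the members. Values were permuted over all 23 animals without regard to group, so group means enter r and its p.

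Ppp2r1a by 1381024_at had r = -0.90 and rho = -0.94 (permutation p = 1e-05 for each, the smallest these permutations can give; adjusted p = 0.00095). Without the 2 animals farthest from the median gap its r was -0.87, and it was -0.89 on deviations from the group means. Ppp2r2c had r = -0.77 and rho = -0.77 (permutation p = 2e-05 and 6e-05; adjusted p = 0.00095 and 0.00285), r = -0.58 without those 2 animals and -0.73 within groups. Ppp3r1 by 1369152_at had r = -0.62 (permutation p = 0.00174, adjusted p = 0.0432) and rho = -0.56 (permutation p = 0.00591, adjusted p = 0.112), with r = -0.36 without the 2 animals, so that its relation rests in part on them. Ppp2r5e by 1395826_at had r = -0.61 and rho = -0.68 (permutation p = 0.00182 and 0.00057; adjusted p = 0.0432 and 0.018), with r = -0.70 without them. With the gap as a covariate of the limma fit, aged impaired minus aged unimpaired was 0.08 ± 0.06 for Ppp2r1a 1381024_at. It was 0.09 ± 0.16 for Ppp2r2c. The gap also differed between these groups on average, so this fit cannot fully separate gap from group.

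**Figure D5:**
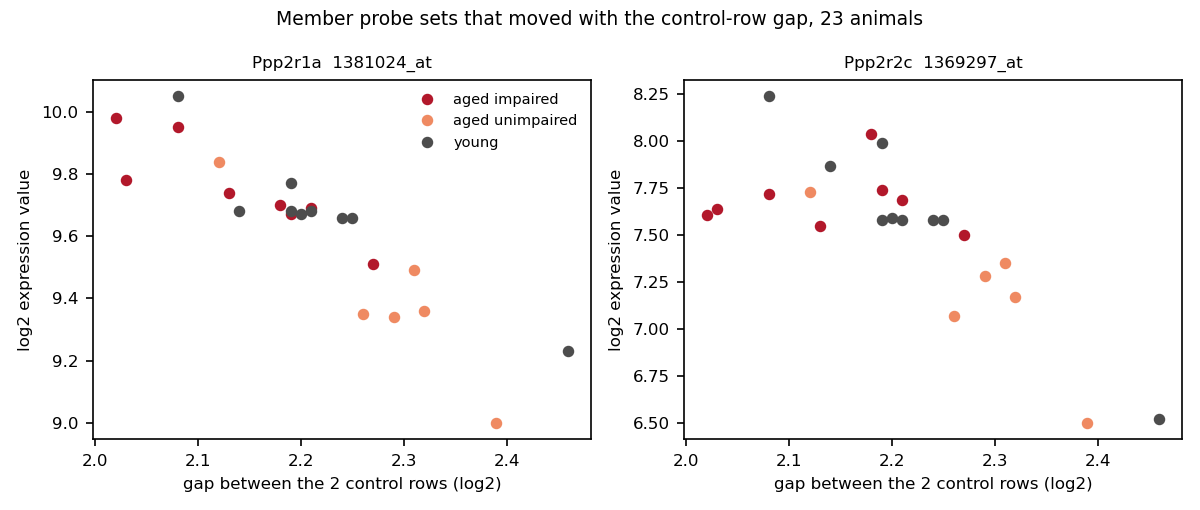
Log2 expression value of Ppp2r1a 1381024_at and Ppp2r2c 1369297_at (vertical axes) against the log2 gap between the 2 control rows (horizontal axis), with a point for each of 23 animals. Both fall along the gap (r of -0.90 and -0.77), and aged unimpaired animal 6 and young animal 7 are the lowest in both panels.

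Different probe sets of the same gene often did not move together over the animals of a group. Over 41 pairs of tested probe sets in 20 member genes, the correlation of within-group deviations had a median of 0.08 and ran from -0.74 (2 probe sets of Ppp3r1) to 0.68 (2 of Ppp2r5e). The pairs share arrays. Some include dim probe sets or probe sets with shared values, and the same correlation was not computed for other genes of the array. The lowest of these values involved 1391213_at of Ppp3r1, which had 15 arrays at a shared value. Ppp1r12a, or MYPT1, the myosin-targeting subunit of PP1, had differences of 0.03, 0.08, -0.03 and -0.09 by its 4 probe sets in aged impaired against young rats, and of -0.01, 0.10, 0.26 and -0.15 between the aged groups, without a call. A statement on these genes therefore holds for the probe set named.

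Partners of the phosphatases outside the symbol families were read from 5 lists, with the brightest probe set for each of 8726 genes, of which 10.2% passed in aged impaired against young rats, 2.03% in aged unimpaired against young rats, 0.435% between the aged groups and 7.53% with both aged groups against young. Among calcineurin partners and targets 13 of 23 genes were measured, and in aged impaired against young rats 2 rose and 2 fell. Rcan2, a calcineurin regulator, had the larger averages in the aged groups, with 9.95 ± 0.13 in aged unimpaired and 9.59 ± 0.24 in young rats (SD) and a difference of 0.41 ± 0.10 in aged impaired against young rats (1.33-fold higher; adjusted p = 0.0104) and 0.36 ± 0.10 in aged unimpaired against young rats (adjusted p = 0.0793). Its other probe set differed by 0.28 and 0.27. Nfat5, a transcription factor related to the calcineurin-regulated NFAT proteins, rose by 0.29 (adjusted p = 0.0344), but by its other probe set the difference was 0.01.

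Cabin1, which binds and inhibits calcineurin, averaged 8.72 ± 0.10 in aged impaired rats, 8.83 ± 0.04 in aged unimpaired rats and 8.88 ± 0.10 in the young and fell in aged impaired against young rats (-0.16 ± 0.04; adjusted p = 0.0287). Mef2a, a transcription factor that calcineurin dephosphorylates, fell too (-0.12 ± 0.03; adjusted p = 0.0198), while its other probe sets differed by -0.00, 0.37 and 0.14. The median of the list was -0.07, against -0.02 over all tested probe sets. In both aged groups against young only Rcan2 of the 13 passed (0.38 ± 0.09, adjusted p = 0.00915).

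Among PP2A modifiers and partners of the striatin complex 16 of 22 genes were measured, with 2 rises and 0 falls in aged impaired against young rats and a median of -0.01. Cttnbp2nl, a member of the striatin complex that binds PP2A, averaged 7.24 ± 0.20 in aged impaired rats, 7.35 ± 0.16 in aged unimpaired rats and 6.85 ± 0.19 in the young. Its differences were 0.39 ± 0.09 in aged impaired against young rats (adjusted p = 0.00824) and 0.50 ± 0.09 in aged unimpaired against young rats (adjusted p = 0.0078), and -0.10 ± 0.10 between the aged groups. It was the only gene of the 5 lists to pass in aged unimpaired against young rats. Anp32e, of a family that includes PP2A inhibitors, rose by 0.16 ± 0.04 in aged impaired against young rats (adjusted p = 0.0295), with 0.08 by its other probe set. Of 14 measured PP1 partners 0 passed in limma in any comparison, with 3 at an unadjusted p under 0.05 in aged impaired against young rats.

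Of 17 measured genes in a list of further phosphatases and related proteins, Ctdspl2 rose in aged impaired against young rats (0.37 ± 0.08, adjusted p = 0.00879). Eya1 rose with both aged groups against young (0.40 ± 0.10, adjusted p = 0.0197). Protein kinase A opposes serine/threonine phosphatases at many sites. Of 8 measured genes of its subunits and inhibitors, 2 fell in aged impaired against young rats and 0 rose. Prkaca, a catalytic subunit, averaged 9.74 ± 0.19 in aged impaired rats, 9.89 ± 0.09 in aged unimpaired rats and 10.01 ± 0.07 in the young (-0.27 ± 0.06 in aged impaired against young rats; 1.20-fold lower; adjusted p = 0.0111). Pkia, an inhibitor of that kinase, averaged 8.66 ± 0.18 in aged impaired rats, 8.82 ± 0.16 in aged unimpaired rats and 9.10 ± 0.15 in the young (-0.44 ± 0.08; 1.35-fold lower; adjusted p = 0.00148), with -0.27 by its other probe set. Both also fell with both aged groups against young, by 0.19 (Prkaca, adjusted p = 0.0359) and 0.36 (Pkia, adjusted p = 0.00283) on the log2 scale. Between the aged groups 0 genes of the 5 lists passed in limma, and at most 2 genes of a list had an unadjusted p under 0.05.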

How the data were processed

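Total RNA of CA3 from 23 rats was hybridised, 1 array per animal. The authors deposited GCRMA values on a log2 scale, per the submitters' processing notes, and they run from 2.195 to 14.848. GCRMA corrects background from probe sequence, normalizes the arrays to a common distribution and summarises probes, so a change shared by most transcripts is lost and weak signals share a floor or a common value. Its version is not given in the sources used here. Arrays have no read depth, and their number limits the precision.

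The 57 control rows were left out of the tests. The test covered the 14647 probe sets that reached 4 on the log2 scale on 6 or more arrays. A mean for each of 3 groups was fitted to all 23 arrays with limma 3.58.1 in R 4.3.3 (lmFit and eBayes, 20 residual and 2.35 prior degrees of freedom), and two-sided p-values were adjusted by Benjamini-Hochberg over all tested probe sets of a comparison. The fit was tested on simulated data with independent normal noise for each probe set. Those data held no values shared between arrays, so the check does not cover such probe sets. Probe sets were named through the platform annotation, and all 132 member probe sets matched a current rat gene table (GRCr8) by gene identifier, with 0 symbols changed.

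The members, classes and 5 partner lists were chosen with earlier results of these data known. Named with values by rule were the members that passed, every catalytic and calcineurin subunit and the 10 member genes brightest in young rats. The partner genes that passed were named too. Other regulatory subunits and PPM genes were picked after their values were seen. The animals are biological replicates per the labels, and p-values measure the spread between them. The alternatives were 12 other settings, the 23 fits without 1 array, and 1 setting added after the marker scores were seen, without the 3 arrays of extreme CA1 score.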

Additional observations from a re-analysis of the deposited data

Results flagged for a closer look

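In 6 of 72 groups checked (24 probe sets in 3 groups), or 8.33%, the highest or lowest animal stood apart from its group by Dixon's ratio at the 95% level. Chance gives about 1 in 20 such groups, and tied values make a small step look large.

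For Ppp2r1a by 1375245_at, aged impaired animal 1 lay at 11.03, above the next at 10.91. For Ppp3cb by 1375882_at, aged unimpaired animal 1 lay at 12.31, above the next at 12.21. For Ppp3cb by 1379314_at, aged impaired animal 3 lay at 6.39, below the next at 6.54.

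For Ppp3cc by 1398469_at, young animal 3 lay at 5.01, below the next at 5.39. For Ppp3r1 by 1391213_at, aged unimpaired animal 8 lay at 5.25, above the next at 5.23. For Ppp4c by 1390333_at, aged impaired animal 2 lay at 7.57, above the next at 7.56. The last 3 probe sets had 13, 15 and 8 arrays at a shared value, and the distances in Ppp3r1 and Ppp4c are at the size of rounding.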

How the results depend on the processing

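Of the 7 member differences that passed, 0 changed sign under any alternative. Of all 380 member differences (95 probe sets in 4 comparisons), 93 did so under at least 1, and the 1 among them over 0.1 in size was Ppp3r1 1369152_at between the aged groups (0.13, -0.09 to 0.18). The count of members that passed in aged impaired against young rats was 4. It was 2 with no filter on low values, which tests all 132 members, and between 2 and 9 over the fits without 1 array, and it kept within 3 to 6 in the other settings. The count in aged unimpaired against young rats was 0, against 4 with array weights and 0 to 4 without 1 array. The count between the aged groups was 0, against 0 in the other settings and 0 to 3 without 1 array, and that for both aged groups against young was 3, with 2 to 3 throughout. These counts too stand without the share of the whole array in the same fits. The labels do not say what a replicate number shares. Over 20 pairs with the same number the median r of deviations was -0.0113 (-0.139 to 0.132), against 0.00799 over 154 other pairs. So animals with the same number did not deviate together on the whole, which cannot exclude a shared step of processing. With the replicate number as a block the 4 counts were 4, 0, 0 and 2, since Ppp2r1a missed (adjusted p = 0.0524).

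Among the calls, Ppm1h 1376060_at was kept in all alternatives. Ppp1r13b was lost with the CA3-minus-CA1 marker score (0.0561). Ppm1h 1393712_at was lost in aged impaired against young rats with no filter (adjusted p = 0.0598) and with only those groups fitted (0.0551). Ppp2r3a was lost with no filter (0.107), quantile normalization (0.0561), the control-row gap (0.125) and without the 3 arrays of extreme CA1 marker score (0.0511). Ppp2r1a was lost with no filter (0.0685), quantile normalization (0.0509), values below 4 set to 4 (0.0503), the CA3-minus-CA1 marker score (0.0721) and without those 3 arrays (0.0626). The cause was not tested. With no filter more probe sets enter both the adjustment and the prior of the limma fit, and the part of each was not tested. Shared values and dim probe sets limit what these arrays can show.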
